A study of Mus musculus with 10 samples.

Results

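Sox2, Ptn, Tspan1 and Prlr were followed in 10 bulk RNA-seq libraries of neutrophils from grafted mouse squamous cell carcinomas. They are 4 of the 55385 mouse genes in the deposited count table, found by matching each row's Ensembl identifier to its symbol in GENCODE M21, and each symbol had 1 row. Sox2 was taken because it is the gene the experiment manipulates. Ptn and Tspan1 were selected on their fold change between treated Sox2Hi and treated control libraries, and Prlr was selected on its graft by treatment interaction. Values from those contrasts are therefore given as descriptions, with no test.

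Carcinoma cells were grafted onto CatchupIVM-red mice, a strain whose neutrophils carry a red Tomato reporter driven from the neutrophil gene Ly6g. The grafts were either the parental Sox2low cells, called control here, or Sox2Hi cells. Established tumours were left naive or the host received anti-PDL1 together with an agonist of CD40, and Tomato+ neutrophils were then sorted. The question the design names is whether tumour Sox2 changes how neutrophils respond to interferon. Control naive libraries (parental graft, no treatment) and Sox2Hi naive libraries (Sox2Hi graft, no treatment) numbered 3 each, and control treated and Sox2Hi treated libraries (the same grafts with both antibodies) numbered 2 each. The sample descriptions tag all libraries C57, the control ones GFP and the Sox2Hi ones Sox2. They do not say how Sox2 was raised, from how many clones, or the hosts' age and sex. Nothing in the labels says that libraries of 1 group came from separate animals, so the p-values measure only the spread between these samples. Part of that spread may be technical, but Ddx3y, given below, had 4 to 8 reads in 1 library of each group and many more in the rest, so the libraries of a group are not repeats of 1 sample.

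Sox2 is a transcription factor with an HMG box that keeps stem cells undifferentiated and drives tumour-initiating cells of squamous carcinoma. Ptn encodes pleiotrophin, a secreted heparin-binding growth factor that binds the receptor phosphatase Ptprz1, the kinase Alk and syndecans. Tspan1 is a tetraspanin, a membrane-spanning organiser of cell surface proteins that is best known from epithelia. Prlr is the prolactin receptor, a cytokine receptor of mammary and skin epithelium that signals through Jak2 and Stat5 to milk protein genes.

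The libraries were sorted for a neutrophil reporter, and all 20 neutrophil markers examined, S100a8, S100a9 and Ly6g among them, had reads in all 10 libraries. All 25 keratinocyte and squamous carcinoma markers, Krt5 and Krt14 among them, also had reads in every library. Gene counts totalled 13815734 to 22986193 per library. Reads of the Y-linked gene Ddx3y were 4 to 8 in both first naive libraries, control treated replicate 1 and Sox2Hi treated replicate 2, and 1007 to 6618 in the other 6. In bulk samples, fewer cells that express a gene and less RNA per cell cannot be told apart. Levels below are CPM, counts relative to library size after TMM scaling.

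The start regions of the genes are shown because the experiment raises a transcription factor whose family binds a short core motif. The sequences are from RefSeq on GRCm38.p6, run 250 bases before to 50 after an annotated start, and are written 5′ to 3′ on the gene's strand. The motifs searched on both strands were ACAATG and ACAAAG, with reverse complements CATTGT and CTTTGT, and a match is in capitals. The Sox2 window is chr3:34649745-34650044 on the plus strand. The Ptn window is chr6:36810130-36810429 and the Tspan1 window is chr4:116167549-116167848, both on the minus strand. The first Prlr window is chr15:10176988-10177287 on the plus strand.
Sox2: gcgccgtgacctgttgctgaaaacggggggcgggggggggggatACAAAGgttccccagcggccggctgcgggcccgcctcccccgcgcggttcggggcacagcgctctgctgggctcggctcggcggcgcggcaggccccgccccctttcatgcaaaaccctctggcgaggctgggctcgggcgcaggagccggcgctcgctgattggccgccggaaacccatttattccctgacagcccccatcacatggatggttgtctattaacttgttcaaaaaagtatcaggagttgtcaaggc
Ptn: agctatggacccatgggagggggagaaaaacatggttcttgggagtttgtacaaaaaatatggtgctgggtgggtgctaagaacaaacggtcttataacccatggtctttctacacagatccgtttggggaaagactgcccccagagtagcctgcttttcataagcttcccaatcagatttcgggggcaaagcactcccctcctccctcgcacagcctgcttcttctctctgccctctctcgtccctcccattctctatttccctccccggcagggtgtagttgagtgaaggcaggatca
Tspan1: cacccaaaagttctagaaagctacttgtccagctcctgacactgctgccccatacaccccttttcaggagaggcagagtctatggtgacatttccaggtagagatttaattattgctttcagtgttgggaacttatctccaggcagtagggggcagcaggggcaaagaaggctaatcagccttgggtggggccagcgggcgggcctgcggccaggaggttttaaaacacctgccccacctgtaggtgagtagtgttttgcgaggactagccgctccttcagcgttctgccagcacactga
Prlr: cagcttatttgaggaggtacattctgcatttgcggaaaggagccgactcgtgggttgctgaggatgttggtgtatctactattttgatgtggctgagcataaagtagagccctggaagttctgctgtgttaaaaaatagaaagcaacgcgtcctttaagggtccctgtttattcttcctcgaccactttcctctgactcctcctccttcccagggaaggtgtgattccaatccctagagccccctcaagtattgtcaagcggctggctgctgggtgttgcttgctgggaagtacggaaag
The Sox2 window held 1 match, ACAAAG, which begins at position -206 from the start. The windows of Ptn and Tspan1 and the 3 annotated starts of Prlr held none. Of 32851 promoter windows of 300 bases, 9394 (28.6%) held at least 1 match, so a single match is common, and its absence says only that these letters are not in the window.

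Sox2 (ENSMUSG00000074637) is a gene of 1 exon, 2057 bp long, at chr3:34650405-34652461 on the plus strand of GRCm38, and it lies inside the longer noncoding gene Sox2ot. Its level was low in every group, at most 2.10 CPM, and it was not higher in naive Sox2Hi tumours than in naive controls. Sox2 had 31, 31 and 43 reads in the control naive libraries, and 3 and 12 in the control treated ones. It had 15, 19 and 26 reads in the Sox2Hi naive libraries, and 16 in each Sox2Hi treated one. In CPM this was 1.55, 1.61 and 2.10 for naive controls, 0.252 and 0.888 for treated controls, 0.758, 1.11 and 1.46 for naive Sox2Hi tumours, and 0.895 and 0.966 for treated Sox2Hi tumours. Control naive libraries were the highest, and all 3 lay above all 3 Sox2Hi naive libraries, a gap in that direction seen in 17.4% of genes. Relative to the background described below they overlapped, at 1.70 to 3.19 times expected in control and 1.33 to 2.64 in Sox2Hi. The libraries are of sorted neutrophils, so these values do not measure Sox2 in the grafted cells. Whether reads of an introduced Sox2 copy would be counted in this row is not given in the sources used here.

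**Figure D1:**
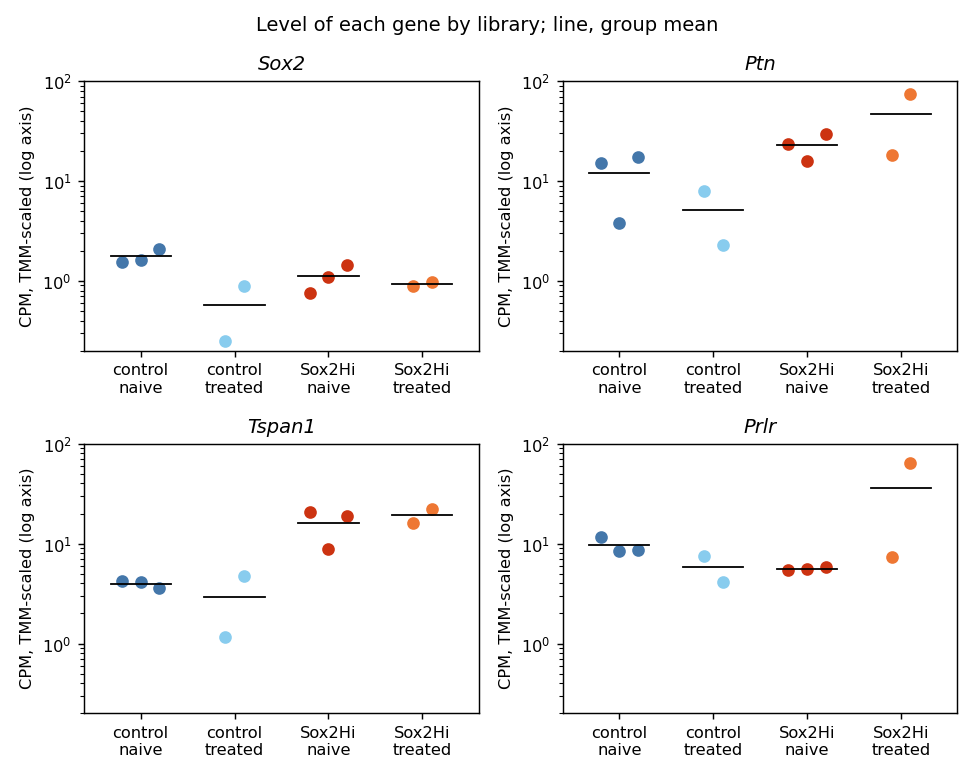
Level of Sox2, Ptn, Tspan1 and Prlr in each library, in TMM-scaled CPM on a log axis, by graft and treatment; points are libraries and the line is the group mean. Tspan1 is above 8 CPM in all 5 Sox2Hi libraries and below 5 CPM in all 5 controls, while the Prlr mean in Sox2Hi treated comes from 1 library at 64.6 CPM. The treated libraries were used to choose Tspan1 and Ptn, and all libraries to choose Prlr.

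Mean Sox2 levels in control tumours were 1.76 ± 0.304 CPM when naive (SD, n = 3) and 0.570 ± 0.450 CPM when treated (SD, n = 2). In Sox2Hi tumours the means were 1.11 ± 0.349 CPM when naive (SD, n = 3) and 0.931 ± 0.0506 CPM when treated (SD, n = 2). Between the grafts, the log2 fold change of Sox2Hi over control was -0.67 (SE 0.34) in naive tumours, with an adjusted p of 0.22 in edgeR's quasi-likelihood test with Benjamini-Hochberg adjustment over 29648 genes. It was 0.67 (SE 0.51) in treated tumours, with an edgeR adjusted p of 0.38, and ran from 0.058 to 1.84 with 1 library left out. Neither difference passed the threshold of 0.05, and the 2 point in opposite directions.

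Within control tumours, Sox2 fell under treatment, by 1.58 on the log2 scale (SE 0.45, edgeR adjusted p = 0.020), and both treated libraries lay below all 3 naive ones, as for 34.8% of genes (23.7% lay above). Of all genes tested, 15.3% were called lower in that contrast and 34% in either direction, so the call is shared with many genes. It held in 17 of 21 alternatives. Without control treated replicate 1, which had 3 reads, the log2 fold change was -0.96 (edgeR adjusted p = 0.14). After subtraction of background reads it was -2.64 (edgeR adjusted p = 0.096). In Sox2Hi tumours the treatment difference was -0.24 (SE 0.41, edgeR adjusted p = 0.78), with overlapping libraries. The test of the difference between these responses, the interaction, gave 1.34 (SE 0.61, edgeR adjusted p = 0.12). That difference passed with library totals (2.32, edgeR adjusted p = 0.011), with factors from expressed genes (2.16, edgeR adjusted p = 0.017) and without control treated replicate 2 (2.49, edgeR adjusted p = 0.038).

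Reads can fall on genes that a cell does not transcribe, so each gene was set against a background rate. For each library, 1466 receptor genes of the olfactory and vomeronasal families gave a median count per kb, which was multiplied by the exon length of the gene in question. Intervals are exact 95% Poisson intervals of the count and cover counting error only. For Sox2, observed reads were 2.12, 1.70 and 3.19 times the expected number in naive controls and 0.580 and 2.10 times in treated controls. The ratios were 1.33, 2.06 and 2.64 in naive Sox2Hi tumours and 1.28 and 1.41 in treated ones. The interval contained 1 in 4 of the 10 libraries, namely control treated replicate 1, Sox2Hi naive replicate 1 and both Sox2Hi treated libraries. Over all libraries, expected background came to 52.6% of the 212 Sox2 reads, and between 17.5% and 68.8% of the receptor genes had at least as many reads per kb as Sox2 in the same library. A rate pooled over the receptor genes, to which genes with many reads add most, was higher than the median. Against it, Sox2 was at 0.72 (naive) and 0.33 (treated) times expected in control tumours. In Sox2Hi tumours it was at 0.63 (naive) and 0.39 (treated), so Sox2 was below the pooled rate in all 4 groups. The median rate was lowest in the control treated libraries, where background made up 1.58% and 1.74% of counts, against 3.63% to 8.39% in the other 8. Its part in the fall of Sox2 there was not tested beyond the subtraction above.

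Sox2ot, the noncoding gene that spans Sox2 (chr3:34104270-34682619, plus strand), had 56 to 172 reads per library, 1.32 to 2.16 times the expected background. Both genes lie on the same strand, and how the counting divided reads between them is not given in the sources used here. No contrast of Sox2ot passed, with edgeR adjusted p-values of 0.27 and 0.39 between grafts (naive and treated), 0.080 and 0.82 between treatments (control and Sox2Hi) and 0.13 for the interaction. The neighbouring coding genes Dnajc19 and Atp11b were far above background, at group means of 28.4 to 168 times expected.

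**Figure D2:**
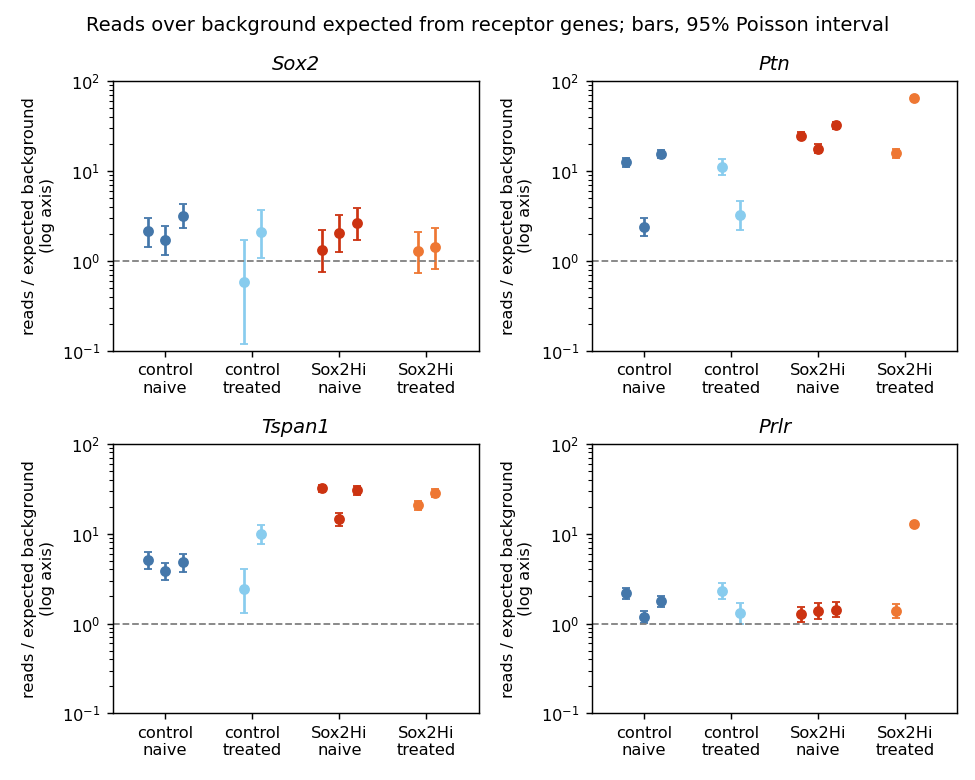
Reads of each gene divided by the background expected from the median rate of olfactory and vomeronasal receptor genes, on a log axis; points are libraries, bars are exact 95% Poisson intervals, and the dashed line marks background. Sox2 lies between 0.580 and 3.19 times expected, with 1 library below the line and 4 intervals that contain it, Ptn and Tspan1 lie above it in every library, and Prlr leaves it clearly in Sox2Hi treated replicate 2 at 12.6 times expected.

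Ptn (ENSMUSG00000029838, chr6:36714929-36810220, minus strand, 3433 bp of exon) averaged 6.23 RPKM (reads per kb of exon relative to library total) over all libraries, with the highest at 20.04 in Sox2Hi treated replicate 2, and had the largest spread within groups of the 4 genes, a residual SD of 0.97 on log2 CPM. Naive controls had 303, 73 and 351 reads and treated controls 95 and 31, while naive Sox2Hi tumours had 466, 272 and 526 and treated ones 327 and 1229. In CPM this was 15.1, 3.80 and 17.2 for naive controls, 7.97 and 2.29 for treated controls, 23.6, 15.8 and 29.5 for naive Sox2Hi tumours, and 18.3 and 74.2 for treated ones. Sox2Hi treated replicate 2 was the highest library by more than a factor of 2, and control treated replicate 2 the lowest. Mean Ptn levels in control tumours were 12.0 ± 7.21 CPM when naive (SD, n = 3) and 5.13 ± 4.02 CPM when treated (SD, n = 2). The Sox2Hi means were 22.9 ± 6.84 CPM when naive (SD, n = 3) and 46.3 ± 39.6 CPM when treated (SD, n = 2).

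Against the median rate, Ptn ran from 2.40 times expected in control naive replicate 2 (95% interval 1.88 to 3.01) to 64.9 times in Sox2Hi treated replicate 2 (95% interval 61.3 to 68.6). Against the higher pooled rate, 2 libraries were below expected, control naive replicate 2 at 0.77 and control treated replicate 2 at 0.79 times. The other 8 were at 2.87 to 18.1 times. In those 2 libraries 21.6% and 20.2% of the receptor genes had at least as many reads per kb as Ptn, against at most 4.64% in the others. Between naive grafts, libraries the choice of Ptn did not use, the log2 fold change of Sox2Hi over control was 0.93 (SE 0.60, edgeR adjusted p = 0.32). Control naive replicate 3, at 17.2 CPM, lay above the lowest Sox2Hi naive library. Naive libraries of the same replicate number deviated alike from their group means (correlations 0.27 to 0.48, against -0.43 to 0.04 for differing numbers). For pairs with a treated library, the same number gave -0.28 to 0.25, and the labels do not say what the number marks. A fit of the naive libraries alone with the number as a block was chosen after seeing the data. In it, Ptn was higher in Sox2Hi by 1.02 (edgeR adjusted p = 0.029). That fit called 14.3% of the genes it tested, 8.31% higher and 6.02% lower. In replicates 1, 2 and 3 the Sox2Hi library was above the control library of the same number. The share of all genes with that pattern was not counted. A block by title number with all 10 libraries kept the same 1.02, with an edgeR adjusted p of 0.27.

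In treated tumours, the contrast that chose it, Ptn differed by 3.18 on the log2 scale (SE 0.80), and by 1.83 without Sox2Hi treated replicate 2. The treated minus naive difference was -1.24 (SE 0.73) in control and 1.01 (SE 0.64) in Sox2Hi tumours, with overlapping libraries in both. Without Sox2Hi treated replicate 2, the Sox2Hi difference was -0.34. The control difference ran from -2.38 to -0.58 with 1 library left out. The coding genes on either side, Chrm2 and Dgki, were at group means of 0.34 to 0.70 and 0.84 to 1.13 times expected, at or under background.

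Tspan1 (ENSMUSG00000028699, chr4:116161869-116167601, minus strand, 2329 bp of exon) was higher in every Sox2Hi library than in every control library. The treated libraries among them are those that chose it. The share of all genes with such a gap over naive and treated libraries together was not counted. Tspan1 had 84, 79 and 73 reads in naive and 14 and 64 in treated controls, against 406, 151 and 338 in naive and 291 and 366 in treated Sox2Hi tumours. The CPM values were 4.20, 4.11 and 3.57 in naive and 1.17 and 4.73 in treated controls. In Sox2Hi tumours the CPM values were 20.5, 8.78 and 18.9 when naive and 16.3 and 22.1 when treated. The lowest Sox2Hi library, naive replicate 2, lay above the highest control library, treated replicate 2.

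Tspan1 was 4.06-fold higher in Sox2Hi than in control naive tumours, 16.1 ± 6.37 against 3.96 ± 0.338 CPM (SD, n = 3 each), and the edgeR adjusted p was 0.042 (log2 fold change 2.02, SE 0.40). These libraries were not used to choose it. It was the 1 of the 4 genes called in that contrast, where 1.87% of all genes were called, 1.66% higher and 0.209% lower, and where 17.3% of genes had all Sox2Hi libraries above all controls. Factors from expressed genes called 13.2% of genes, split into 0.931% higher and 12.3% lower, and Tspan1 was still called, at 1.64 (edgeR adjusted p = 0.026). Over 22 alternatives the log2 fold change ran from 1.64 to 2.32, always higher in Sox2Hi. The call held in 11 of them and was lost in 11, with edgeR, limma and DESeq2 adjusted p-values from 8.3e-06 to 0.19. In leave-one-out fits it was lost without control naive replicate 1 (adjusted p = 0.19) or 2 (0.099), without Sox2Hi naive replicate 1 (0.093), 2 (0.093) or 3 (0.14), and without Sox2Hi treated replicate 1 (0.061) or 2 (0.060), all from edgeR.

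In treated tumours, the contrast that chose it, the Tspan1 difference was 2.68 (SE 0.52), from 19.2 ± 4.12 against 2.95 ± 2.52 CPM (SD, n = 2 each). Of all genes, 33% had both treated Sox2Hi libraries above both controls and 27.3% below. It was 2.01 without control treated replicate 1 and 4.01 without control treated replicate 2. The treated minus naive differences were smaller than their SEs, at -0.40 (SE 0.48) in control and 0.25 (SE 0.42) in Sox2Hi tumours, with overlapping libraries in both. Reads were 3.82 to 5.07 times background in control naive, 2.39 and 9.87 times in treated controls, 14.5 to 31.8 times in naive Sox2Hi tumours and 20.6 and 28.5 times in treated ones. Against the pooled rate, control treated replicate 1 was at 0.62 times expected and the other 4 controls were at 1.22 to 2.42 times. The Sox2Hi libraries were at 4.30 to 10.2 times. The neighbours Pomgnt1 and 1700042G07Rik were at group means of 1.99 to 3.21 and 0.47 to 1.44 times expected, the second on 0 to 4 reads per library.

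**Figure D3:**
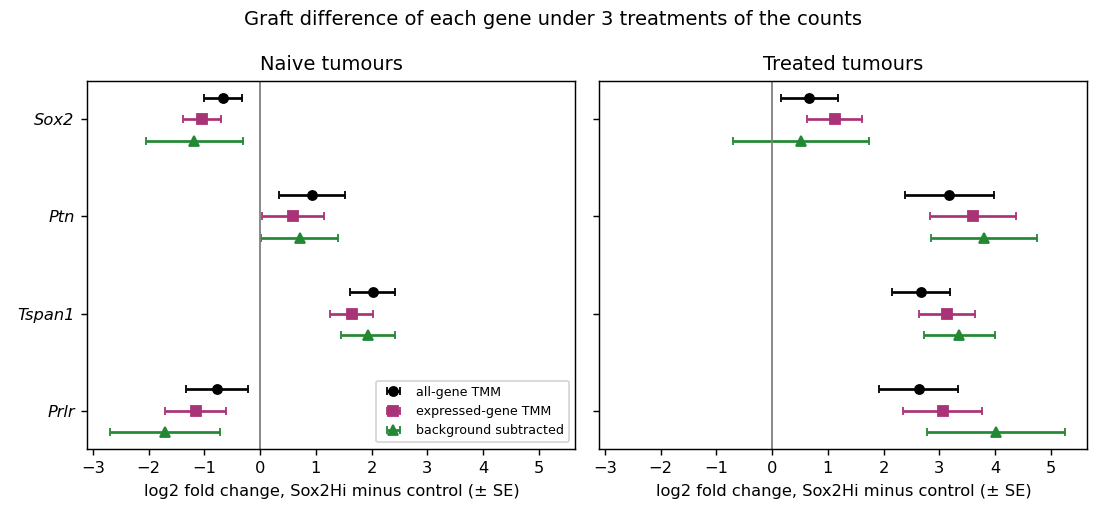
Log2 fold change of Sox2Hi over control with its SE for each gene, in naive and in treated tumours, from all-gene factors, from expressed-gene factors and after background subtraction. Tspan1 and Ptn lie to the right of 0 in both panels under all 3 treatments of the counts, while Sox2 and Prlr lie on opposite sides in naive and in treated tumours.

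Prlr (ENSMUSG00000005268, chr15:10177238-10349180, plus strand, 15339 bp over all annotated exons) was near background in 9 libraries and high in 1. Naive controls had 236, 161 and 178 reads, treated controls 89 and 56, naive Sox2Hi tumours 107, 95 and 105, and treated Sox2Hi tumours 130 and 1070. The level was 11.8, 8.38 and 8.71 CPM in naive controls, 7.47 and 4.14 in treated controls, 5.41, 5.53 and 5.88 in naive Sox2Hi tumours, and 7.27 and 64.6 in treated ones. Sox2Hi treated replicate 2 alone stood apart. Observed reads there were 12.6 times expected (95% interval 11.9 to 13.4), against 1.18 to 2.31 times in the other 9 libraries. With the pooled rate it was 3.52 times, against 0.32 to 0.67 times in the other 9.

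The Prlr interaction that chose it was 3.41 on the log2 scale (SE 0.90), and 1.08 without Sox2Hi treated replicate 2. All treated Sox2Hi libraries lay above the naive ones, as for 22% of genes (21.8% lay below). This difference went from 2.68 (SE 0.61) to 0.36 without that library, and the treated graft difference from 2.63 (SE 0.71) to 0.32. In naive tumours all 3 Sox2Hi libraries lay below all 3 control libraries, at a log2 difference of -0.78 (SE 0.56), a gap that 17.4% of genes had. Both control treated libraries lay below the control naive ones (-0.73, SE 0.65), as for 34.8% of genes. As multiples of expected background, control naive libraries (1.18 to 2.16) overlapped both Sox2Hi naive ones (1.27 to 1.43) and control treated ones (1.31 and 2.31). Sox2Hi treated replicate 2 had 7 Ddx3y reads. The other 3 libraries with under 10 such reads had Prlr at 11.8, 5.41 and 7.47 CPM, and a model with a Ddx3y term gave an interaction of 3.07. The neighbours Spef2 and Agxt2 were at group means of 0.58 to 1.18 and 0.82 to 1.30 times expected.

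In RPKM, which uses library totals without TMM factors and allows genes to be compared, the order in control naive was Ptn at 4.32 ± 2.42 and Tspan1 at 2.17 ± 0.312, then Sox2 at 1.08 ± 0.150 and Prlr at 0.795 ± 0.136 (SD, n = 3). In control naive replicate 2, Tspan1 (2.46) was above Ptn (1.54). In Sox2Hi naive Tspan1 at 7.42 ± 2.97 and Ptn at 7.18 ± 2.14 did not differ beyond their spread, and Sox2 at 0.577 ± 0.179 and Prlr at 0.392 ± 0.0156 came after them (SD, n = 3). Prlr was divided by 15339 bp of exon, and its longest transcript is 9900 bp. Its place below Sox2 in the naive groups depends on that choice of length. In control treated the means were 0.927 ± 0.756 for Ptn, 0.757 ± 0.621 for Tspan1, 0.233 ± 0.104 for Prlr and 0.165 ± 0.125 for Sox2 (SD, n = 2). The ranges of Ptn and Tspan1 overlapped there, as did those of Prlr (0.159 and 0.307) and Sox2 (0.0771 and 0.254). In Sox2Hi treated the means were 13.0 ± 9.97 for Ptn, 8.30 ± 0.706 for Tspan1, 2.22 ± 2.39 for Prlr and 0.461 ± 0.0354 for Sox2 (SD, n = 2). Their order rests on replicate 2. In replicate 1 Tspan1 (7.80) was above Ptn (5.95), and Prlr (0.529) was close to Sox2 (0.486), while in replicate 2 Ptn was at 20.04, Tspan1 at 8.80, Prlr at 3.91 and Sox2 at 0.435.

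The gene lists below hold relatives and partners of the 4 genes. Counts of called genes leave out Ptn, Tspan1 and Prlr, which were chosen on these values, except that Ptn and Tspan1 enter the naive graft contrast, which their choice did not use. Prlr is not among the genes called there. In the SOX family, 16 of 20 genes were tested, and none passed between naive grafts or between treatments in Sox2Hi tumours in edgeR. In treated tumours 1 was lower in Sox2Hi, Sox11, a SOX factor of progenitor cells, at 9.17 ± 3.48 CPM in Sox2Hi against 33.1 ± 0.957 in control (SD, n = 2 each; log2 -1.85, edgeR adjusted p = 0.014). In that contrast 4.18% of all genes were called higher and 9.57% lower, 13.7% in all. Under treatment of control tumours 4 fell and none rose, namely Sox2, Sox8, Sox9 and Sox12, where 15.3% of all genes were called lower and 18.7% higher, and the family median was -0.95 against -0.30 over all genes. The count ran from 1 (DESeq2, RLE factors, voom, no filter or only the groups compared) to 16 (library totals). The call of Sox8 was lost in 8 of 20 alternatives and that of Sox12 in 12 of 19. Treated controls also had the lower background share, 1.58% and 1.74% of counts against 5.02% to 8.39% for naive controls. Sox8 and Sox12, at 1 to 42 reads, did not enter the fit after its subtraction, where Sox9 was called and Sox2 was not, so its part in their fall was not tested. Sox9, a factor of hair follicle stem cells and skin carcinoma, was by far the more abundant, with 1596 to 9303 reads per library against 3 to 43 for Sox2. Of 21 partners and stem cell factors, none passed between naive grafts. In treated tumours 3 were higher in Sox2Hi and 1 lower, beside the same 4.18% and 9.57% of all genes: Pou5f1 (Oct4, the classical Sox2 partner) by 2.02, the intermediate filament gene Nes by 1.57 and the nuclear receptor gene Esrrb by 1.32, with edgeR adjusted p-values of 0.032, 0.011 and 0.020. Pou5f1 had only 1 and 4 reads in control treated and 10 to 19 in the other libraries. In control tumours Pou5f1 (-2.17) and Pitx1 (-1.48) fell under treatment and the chromatin remodeller Chd7 rose (1.58), among 1 higher and 5 lower. The Pitx1 call held in 15 of 21 alternatives, and its value ran from -1.91 to -0.81 with 1 library left out. The treated graft call of Pou5f1 held in 11 of 19 alternatives, that of Nes in 17 of 20 and that of Esrrb in 14 of 20. Background made up 1.58% and 1.74% of all counts in the control treated libraries and 4.04% and 4.96% in the Sox2Hi treated ones. After its subtraction none of the 21 was called, and these 3 genes did not enter that fit, so the part of background in their differences was not tested. In Sox2Hi tumours Prom1, the stem cell surface antigen CD133, rose by 1.24 (edgeR adjusted p = 0.023) and no other did, beside 1.79% of all genes.

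In the pleiotrophin and midkine axis, all 25 genes were tested. Itgb1, the beta1 integrin, was the 1 gene that passed between naive grafts, at 626.7 ± 111 CPM in Sox2Hi against 300.8 ± 96.7 in control (SD, n = 3 each; log2 1.06, edgeR adjusted p = 0.044), beside 1.66% of all genes called higher and 0.209% lower. That call was lost in 13 of 22 alternatives, among them 9 of the 10 fits with 1 library left out, where edgeR kept it without control naive replicate 3 alone. The receptors that bind pleiotrophin did not pass between grafts in either state: Ptprz1 had log2 differences of -0.21 naive and -0.18 treated, Sdc1 0.28 and -0.42, Alk -0.42 and 0.69. Midkine (Mdk), the closest relative of Ptn, had 30 to 109 reads and log2 differences of 0.47 naive and -0.53 treated, also not passing. In treated tumours, of the other 24 genes, the endothelial phosphatase Ptprb (0.91) was higher and the matrix proteoglycan Vcan (-0.96) lower, beside 4.18% and 9.57% of all genes. These calls held in 6 of 21 (Ptprb) and 15 of 21 (Vcan) alternatives. Under treatment, Mdk fell by 1.42 and Itgb1 by 1.27 in Sox2Hi tumours (edgeR adjusted p = 0.045 and 0.027), where 1.79% of all genes were called higher and 1.82% lower. The call held in 9 of 20 alternatives for Mdk and in 16 of 21 for Itgb1. In control tumours Ptprb (-1.24) and Cspg4 (-1.21) were among 3 that fell and Vcan rose (1.17), beside 15.3% and 18.7% of all genes. The Cspg4 call held in 11 of 20 alternatives.

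All 31 tetraspanins were tested. Between naive grafts 4 were higher in Sox2Hi and none lower, beside 1.66% and 0.209% of all genes: Tspan1, the metastasis suppressor Cd82 (55.5 ± 3.43 against 28.5 ± 5.31 CPM), Tspan14 (15.5 ± 0.932 against 8.71 ± 1.73 CPM; SD, n = 3 each) and Cd81. Their edgeR adjusted p-values lay between 0.042 and 0.049. The call held in 10 of 22 alternatives for Cd82 and in 7 of 22 for Tspan14, and the family median was 0.42 against -0.08 over all genes. With factors from expressed genes 1 was higher, Tspan1, and 1 lower. In treated tumours, of the other 30 tetraspanins, none passed as higher in Sox2Hi and 4 were lower, beside 4.18% and 9.57% of all genes: the leukocyte tetraspanins Cd53 (-1.48) and Cd37, Cd9 (-1.21) and Tspan13. With factors from expressed genes 3 of these 30 were higher and 2 lower. In control tumours 11 rose under treatment, led by Cd37 (2.15), Cd53 (1.94) and Tspan13 (1.67), and 2 fell, beside 18.7% and 15.3% of all genes. In Sox2Hi tumours 1 changed, the granule membrane protein Cd63, which fell by 1.10, beside 1.82% of all genes called lower and 1.79% higher. The neutrophil marker sum rose with these leukocyte tetraspanins, from 5811 to 8117 CPM in control naive to 34940 and 40351 in control treated, with all 20 markers called higher. Between treated grafts it was lower in Sox2Hi, at 13933 and 14094, with 14 of 20 markers called lower. Its part in the leukocyte tetraspanins was not tested. Tspan8, an epithelial relative of Tspan1, had 65 to 242 reads and log2 differences of 0.64 naive and 0.89 treated that did not pass (edgeR adjusted p = 0.31 and 0.24).

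In the prolactin axis, 22 of 25 genes were tested, and none of the 21 besides Prlr passed between naive grafts. In treated tumours, of the other 21 genes, Csn3 was higher in Sox2Hi and Jak2 and Ptprc lower (13.7% of all genes called, 4.18% higher and 9.57% lower). Csn3, the milk protein kappa casein, had 33 and 418 reads in Sox2Hi treated and 7 and 19 in control treated (log2 3.73, edgeR adjusted p = 0.031), and without Sox2Hi treated replicate 2 the difference was 0.85 (edgeR adjusted p = 0.44). In the 6 naive libraries it had 26 to 78. The ligand gene Prl had 1 to 9 reads per library. Jak2, the kinase of the receptor, was lower in Sox2Hi treated tumours (-1.08, edgeR adjusted p = 0.0098), a call lost in 6 of 21 alternatives. In that contrast 14 of 20 neutrophil markers were called lower, with a list median of -1.17, and Jak2 rose with them under treatment of control tumours. Their part in Jak2 was not tested. Stat5a (-0.08 naive, -0.06 treated), Cish and Socs2, targets of Stat5, did not pass between grafts. In control tumours 7 genes rose under treatment, led by the leukocyte genes Ptprc (1.80) and Vav1 (1.69), and 4 fell, among them Igf1 (-1.61), beside 18.7% and 15.3% of all genes. All 20 neutrophil markers were called higher in the same contrast, and their part in Ptprc and Vav1 was not tested. Of 10 fibroblast markers 5 were called lower and 1 higher there, with a list median of -1.16. Their part in Igf1 was not tested. In Sox2Hi tumours 1 of the other 21 genes passed, the growth hormone receptor Ghr, which fell by 1.38 (edgeR adjusted p = 0.045, with 3.61% of genes called), a call that held in 12 of 21 alternatives. The sum of 10 fibroblast markers was 110 and 334 CPM in treated against 590 to 858 in naive Sox2Hi tumours, with none called. Its part in Ghr was not tested.

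**Figure D4:**
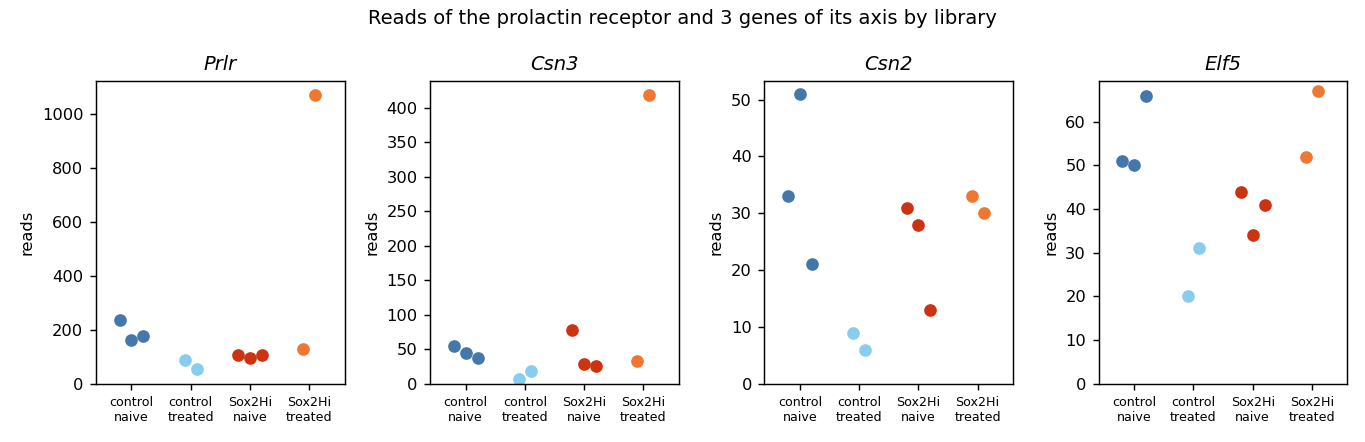
Reads of Prlr and of 3 genes of its axis, Csn3, Csn2 and Elf5, in each library by graft and treatment; points are libraries. Sox2Hi treated replicate 2 is the highest library for Prlr (1070 reads) and Csn3 (418 reads).

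The scaling changes how these lists divide. Of the 114 tested genes in the 5 lists together, 5 were higher and none lower between naive grafts with all-gene factors, against 2 higher and 10 lower with factors from expressed genes. With the replicate block by title number the naive count was 18 higher and 2 lower. Of the 111 genes without Ptn, Tspan1 and Prlr, 5 were higher and 9 lower in treated tumours, against 17 and 3. Under treatment in control tumours 20 rose and 18 fell, against 14 and 55, and for the interaction 11 and 19 became 29 and 1. Over all genes the split turned from 4.18% higher and 9.57% lower to 15.8% and 2.36% (18.2% called) between treated grafts, and from 18.7% and 15.3% to 10.7% and 43.9% (54.6% called) under treatment in control tumours. It turned from 1.79% and 1.82% to 4.86% and 1.45% (6.32% called) under treatment in Sox2Hi tumours, and from 11.3% and 16.2% (27.5% called) to 34.9% and 1.98% (36.8% called) for the interaction. The median of all genes moved at the same time, from -0.08 to -0.46 between naive grafts, from 0.13 to 0.58 between treated grafts and from -0.30 to -0.85 under treatment in control tumours. The naive graft difference was above 0 under either scaling for Tspan1, which was called under both, and for Ptn, which was called under neither.

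Some markers of other cells differed between the grafts. The sums of fibroblast, endothelial, glia and Schwann cell, T and NK cell and mast cell markers overlapped between grafts in both states. The summed level of 16 glandular epithelium markers was 3446 to 5131 CPM in Sox2Hi naive against 1113 to 1908 in control naive, and 1592 to 2186 in Sox2Hi treated against 916 to 987 in control treated. It was higher in Sox2Hi in both states without overlap, as Tspan1 was. Of 15 tested, 5 were higher in naive Sox2Hi tumours in edgeR, where 1.66% of all genes were, here with their log2 fold changes: the simple keratins Krt8 (1.27), Krt18 (1.33) and Krt19 (2.09), the water channel Aqp5 (1.69) and the tight junction gene Cldn4 (2.31). The other 10 did not pass, and 6 of them were below 0 in log2 difference: Elf5 (-0.37), Areg (-0.28), Pgr (-0.54), Cldn7 (-0.59), Spdef (-0.39) and Agr2 (-0.87). Krt18, Krt8 and Cldn4 made up 91.4% to 96.1% of the sum in each library. Without them the sum was 134 to 205 CPM in Sox2Hi naive against 71.2 to 104 in control naive, and 122 to 166 in Sox2Hi treated against 51.9 to 84.9 in control treated, again without overlap. In treated tumours 4 were higher, Krt7, Krt18, Aqp5 and Muc1, beside 4.18% of all genes. Cldn3 was at 0 in Sox2Hi naive replicate 3, and no other marker of this list was at 0 in any library. The 25 keratinocyte and squamous carcinoma markers summed to 1085 to 3597 CPM in control naive, 1928 to 2440 in Sox2Hi naive, 1356 to 2591 in control treated and 1251 to 1887 in Sox2Hi treated, with none called between naive grafts, none at 0 in any library, and Lamb3 alone lower in treated Sox2Hi tumours (-0.90). Between naive grafts the sums of 10 macrophage and dendritic cell markers (1074 to 1435 CPM in Sox2Hi against 599 to 765 in control) and of 7 B and plasma cell markers (202 to 798 against 85.7 to 137) were also higher in Sox2Hi without overlap, with no single gene called. In treated tumours these sums overlapped, at 584 to 1263 against 659 to 1137 and at 44.3 to 132 against 84.3 to 180. The part of glandular, carcinoma, macrophage or B cell transcripts in the levels of Tspan1, Ptn and Sox2 was not tested.

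**Figure D5:**
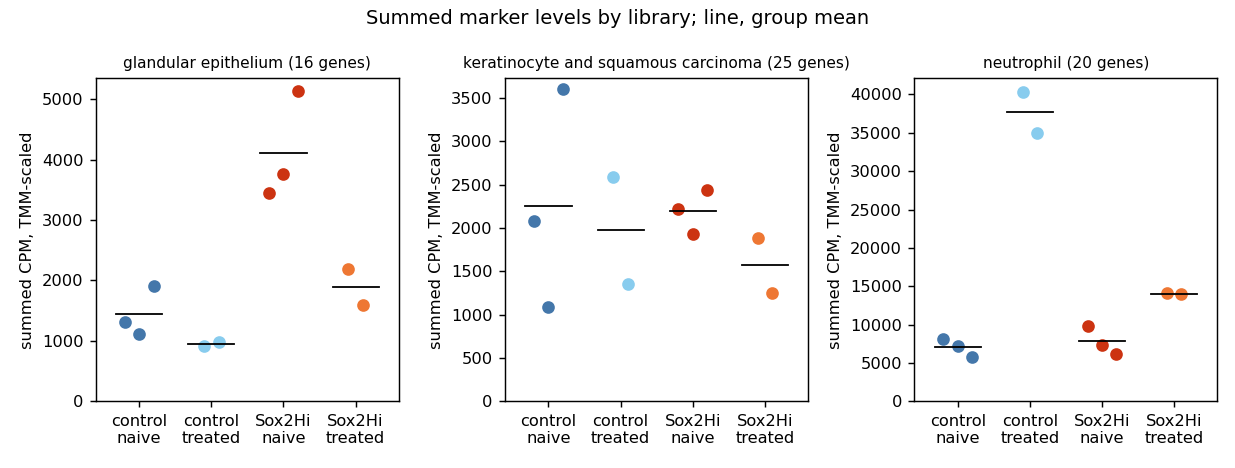
Summed TMM-scaled CPM of 16 glandular epithelium, 25 keratinocyte and squamous carcinoma, and 20 neutrophil markers by library; points are libraries and the line is the group mean. The glandular sum is higher in Sox2Hi than in control libraries in both states, and the neutrophil sum is highest in control treated.

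Sox2Hi treated replicate 2, where Prlr and Ptn peaked, did not lead the glandular sum, at 1592 CPM the lowest Sox2Hi library. Its reads of Cldn4 (5109), Krt8 (7887) and Krt18 (11346) were also the fewest of the 5 Sox2Hi libraries. It held the most reads of the claudins Cldn7 (34, against 5 to 18 elsewhere) and Cldn3 (27, against 0 to 8) and of the milk gene Lalba (14, against 1 to 6). Csn3 also peaked there, at 418 reads. The milk genes Csn2 (30 reads), Csn1s1 (13) and Wap (9) did not, with up to 51, 21 and 15 elsewhere. Fibroblast markers summed to 110 CPM there, the lowest of all libraries, where the other 9 ran from 144 to 858.

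The 5 genes most like each of the 4 were taken by Pearson's r of log2(CPM + 1) over the 10 libraries, among 9749 genes averaging 5 CPM or more. Libraries of a group share graft and treatment, so r is a description of these samples. Tspan1 was most like Camk2n1 (0.93), Sptssb (0.91), Shroom3 (0.89), Lrrc26 (0.89) and Rnf220 (0.88). Ptn was most like Ap4e1 (0.89), Slc12a2 (0.88), Nom1 (0.86), Gata3 (0.86) and Ypel2 (0.85). Sox2 was most like Mir99ahg (0.94), Cchcr1 (0.92), Trerf1 (0.91), Pvt1 (0.91) and Thsd4 (0.89). Prlr was most like Igfbp5 (0.92), Wdr31 (0.86), Olfr90 (0.83), Bglap3 (0.81) and Sirt5 (0.80). Among the 4 genes themselves, r was 0.69 for Ptn with Tspan1, 0.63 for Ptn with Prlr, 0.26 for Tspan1 with Prlr, and 0.06 to 0.08 for Sox2 with the other 3.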

How the data were processed

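Bulk RNA was sequenced from 10 neutrophil libraries prepared with a low-input kit, per the labels' protocols. The authors deposited 1 table of estimated counts per gene in whole numbers. The submitters' processing notes name kallisto 0.44.0 and the build mm10, without roles; annotation, gene summary and strand use are not given in the sources used here. Of 55481 rows, 96 spike-in and transgene sequences entered neither library sizes nor tests, and 55144 of 55385 gene identifiers matched GENCODE M21.

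Groups came from the labelled graft and treatment. One edgeR 4.0.16 model (R 4.3.3), filtered by filterByExpr, scaled by TMM and tested by quasi-likelihood F, covered all 10 libraries and 29648 genes, with 5 contrasts and calls at a Benjamini-Hochberg adjusted p under 0.05. Dividing a log2 fold change by the root of its F gave the SE. The scripts were tested on simulated data. Counts of 13815734 to 22986193 per library set the precision, and counting intervals cover counting error only. Replicates of 1 group differed by a chi-square of at least 12.5 per degree of freedom, so all were counted. The labels do not say what a replicate number marks. Correlations of deviations from group means in the 3 naive pairs of the same number were 0.27, 0.34 and 0.48 over 11117 genes. The pairing of the naive libraries was inferred from these values.

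The genes and lists were chosen with earlier results of these data known. Genes named besides the 4 are the 3 called with the largest change per list and contrast, the 5 most alike by correlation, Sox2ot and the nearest coding gene on each side; other list genes were named after their values were seen. Alternatives were DESeq2 1.42.0, limma 3.58.1 voom, RLE factors, library totals, factors from genes of at least 5 CPM, no count filter, replicate blocks, a Ddx3y term, background subtraction, only the groups compared, other background rates, Spearman correlation and each library left out. A fit of the naive libraries alone with the replicate block was chosen after seeing the data.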

Additional observations from a re-analysis of the deposited data

Results flagged for a closer look

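In CPM, Prlr was lower under treatment in every control library and higher in every Sox2Hi library. The difference in response, 3.41 on the log2 scale, was not tested, since it chose the gene. As multiples of expected background, treated controls were at 2.31 and 1.31, overlapping naive controls at 1.18 to 2.16. Sox2Hi treated replicate 1 was at 1.39, within the naive Sox2Hi range of 1.27 to 1.43. Of all genes, 34.8% had all treated controls below the naive ones and 22% all treated Sox2Hi libraries above. Without Sox2Hi treated replicate 2, the difference in response was 1.08 and the Sox2Hi treatment difference went from 2.68 to 0.36.

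In the 5 lists 30 genes besides Prlr were called for the interaction. For 11 of them, at most the 3 with the largest change in each list, the response to treatment differed between grafts by the interaction test of edgeR (adjusted p under 0.05; 27.5% of all genes were called). The log2 treatment difference in Sox2Hi minus that in control was above 0 for Csn3 (3.69), Pou5f1 (2.48), Csn2 (2.05), Nes (1.51), Tfap2c (1.46), Ptprb (1.35) and Alk (1.11), all of which had a negative difference in control and a positive one in Sox2Hi. For Pou5f1 these were -2.17 and 0.31, and for Nes -1.31 and 0.20. It was below 0 for Cd37 (-1.72), Cd53 (-1.63), Cd9 (-1.57) and Itgb1 (-1.38). Itgb1 fell by 1.27 in Sox2Hi and was at 0.11 in control, while Cd37 was at 2.15 in control and 0.43 in Sox2Hi. The Csn3 interaction was 0.79 without Sox2Hi treated replicate 2 (edgeR adjusted p = 0.47), and its call held in 8 of 20 alternatives. The call held in 8 of 19 for Csn2, 10 of 20 for Alk and at least 15 for each of the other 8. After background subtraction 1 of the list genes was called for the interaction, Tfap2c, and Pou5f1, Nes and Csn2 did not enter that fit. With factors from expressed genes, where the median interaction of all genes was 1.04 in place of 0.22, 29 of the 30 list genes called besides Ptn and Prlr had an interaction above 0.

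The tdTomato sequence, which no comparison uses, had reads in all libraries, with 135 in the lowest, above the 3 counts that a count of 0 allows. The mCherry sequence had at most 1 read.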

How the results depend on the processing

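No result below had its cause tested. Low counts limit Sox2, whose 3 to 43 reads per library leave a wide counting interval, and the 2 libraries of each treated group limit every treated value, since leaving 1 out leaves a lone library assumed to vary like the others. Over the alternatives, the naive graft difference of Sox2 kept its direction in 22 of 22 and passed in none, and that of Ptn kept its direction in 22 of 22 and passed in 1. The replicate block by title number changed no call of the 4 genes. DESeq2 gave no adjusted p for Sox2 in 3 contrasts.

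Sox2 between treated grafts passed with library totals (1.41). Its fall in control tumours was not called by DESeq2 (-1.41), voom (-1.62) or after background subtraction (-2.64), and ran from -2.75 to -0.96 with 1 library left out. Its treatment difference in Sox2Hi tumours turned to 0.031 with factors from expressed genes and ran from -0.46 to 0.0062 with 1 library left out. Its interaction was 2.32 with library totals and 2.16 with factors from expressed genes, and 0.71 to 2.49 with 1 library left out.

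For Ptn, the naive libraries alone with the replicate block gave 1.02, past the threshold. Leaving 1 library out gave 1.83 to 4.32 between treated grafts and -0.34 to 1.71 for treatment in Sox2Hi tumours. For Tspan1 between naive grafts, the call was lost with library totals (1.78), background subtraction (1.93), the Ddx3y term (2.02) and only the groups compared (1.94), and the leave-one-out range was 1.81 to 2.32. Between treated grafts it was 3.43 with library totals and 3.36 after subtraction, with a leave-one-out range of 2.01 to 4.01. Its undecided differences ran, with 1 library left out, from -1.72 to 0.28 for treatment in control tumours, -0.041 to 0.47 in Sox2Hi tumours and -0.036 to 1.96 for the interaction. The Prlr interaction was 5.73 after subtraction and 1.08 to 4.21 with 1 library left out.

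Called genes in the 5 lists between naive grafts, 5 at first, were 24 by DESeq2, 8 with RLE factors, 0 with library totals, 12 with factors from expressed genes, 19 by voom, 20 with the replicate block by title number, 3 with that by description number, 2 after subtraction, 0 with the Ddx3y term, 0 with only the groups compared, 26 for naive libraries alone with the replicate block, and 0 to 10 with 1 library left out. The count of 26 includes Prlr, whose choice used these libraries, so its call there is no test of it. Between treated grafts, 17 (14 without the chosen Ptn, Tspan1 and Prlr) became 27 by DESeq2, 47 with library totals, 2 after subtraction, 0 with only the groups compared and 2 to 23 with 1 library left out. For treatment in control tumours, 38 became 92 with library totals, 69 with factors from expressed genes and 22 to 41 with 1 library left out. In Sox2Hi tumours, 6 (5 without Prlr) became 23 by DESeq2, 13 with library totals, 13 by voom, 10 with the replicate block by title number, 3 with the Ddx3y term, 22 with only the groups compared and 0 to 18 with 1 library left out. For the interaction, 31 (30 without Prlr) became 1 after subtraction and 17 to 33 with 1 library left out.

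Reads over expected background fell under the pooled rate, for Sox2 to 0.72 (control naive), 0.63 (Sox2Hi naive) and 0.39 (Sox2Hi treated), for Ptn to 3.09 (control naive) and 7.84 (Sox2Hi naive), for Tspan1 to 1.41 (control naive), 8.09 (Sox2Hi naive) and 7.04 (Sox2Hi treated), and for Prlr to 0.53 (control naive), 0.46 (control treated) and 0.43 (Sox2Hi naive). With vomeronasal receptors only, Sox2 was at 1.35 (Sox2Hi naive) and 0.90 (Sox2Hi treated), Ptn at 16.7 (Sox2Hi naive), Tspan1 at 3.14 (control naive) and 16.4 (Sox2Hi treated) and Prlr at 1.17 (control naive) and 0.91 (Sox2Hi naive). With olfactory receptors only, Sox2 was at 1.47 (Sox2Hi treated) and Prlr at 1.46 (Sox2Hi naive). With the longest transcript as length, Ptn was at 32.8 (Sox2Hi naive), Tspan1 at 5.24 (control naive) and Prlr at 2.59, 2.77 and 2.08 (control naive, control treated and Sox2Hi naive).

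By Spearman's rho, 2, 0, 2 and 0 of the 5 most alike genes of Sox2, Ptn, Tspan1 and Prlr were kept, and with 1 library left out 2 to 5, 0 to 5, 1 to 5 and 0 to 4.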
